A study of Mus musculus with 8 samples.

Results

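The 34 genes described here are the ER chaperones of the unfolded protein response and the Atf4 genes of the integrated stress response, of 23050 genes tested on the arrays. They were chosen by gene symbol: 17 chaperones and other ER folding or degradation genes, 13 genes of the Atf4 arm, and 4 sensors and their transcription factors. Each gene is given by its brightest probe that was well above background on both arrays of at least 1 group. All 34 members passed that filter and were above background on all 8 arrays.

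The cells were mature adipocytes made from the mouse preadipocyte line 3T3-L1. They were treated for 72 h with chrysotile, crocidolite or amosite asbestos, each at 10 mg/cm2 per the labels, or with physiological saline. That dose is high for cultured cells, and whether the unit should read micrograms could not be checked here. Chrysotile is a serpentine mineral, and crocidolite and amosite are amphiboles. The groups had 2 arrays each, 8 in all, and whether a pair came from separate cultures is not given in the labels.

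Secreted and membrane proteins fold in the endoplasmic reticulum (ER) with the help of chaperones. When unfolded protein builds up, the sensors Ire1 (Ern1), Atf6 and Perk (Eif2ak3) start the unfolded protein response. Atf6 and the spliced form of Xbp1 turn on chaperone genes, while Perk phosphorylates the translation factor eIF2, which favours translation of Atf4. Other kinases that sense amino acid shortage, heme or viral RNA reach the same factor, and this wider pathway is called the integrated stress response. Fat cells secrete large amounts of protein, and Xbp1 is known to be needed while they differentiate.

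Atf6 acts at the ER stress response element (ERSE), and Atf4 at the C/EBP-ATF response element (CARE). RefSeq promoter windows on GRCm38.p6, from 250 bases before to 50 bases after the start, were matched for 31 of the 34 members (Hyou1, Manf and Atf6 were not analysed here). The ERSE was searched on both strands as CCAAT followed after 9 free bases by CCACG. It was found in 7 of 15 chaperone arm genes, in 0 of 13 Atf4 arm genes and in 0 of 3 sensors, against 37 of 27025 genes in the table (0.137%). The variant ERSE-II, ATTGG followed after 1 free base by CCACG, was found in Dnajb11 and Herpud1 and in 12 genes of the table. The CARE letters TGATGNAA were found in Asns, Chac1, Trib3 and Herpud1, and in 1219 genes of the table (4.51%). The pieces CCAAT and CCACG lie within the ERSE and are common alone, in 41.1% and 35.5% of the genes in the table. The ERSE matches are set out below on the motif's own strand, with the fixed letters in capitals and positions counted from the transcription start.

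Hspa5 -65 to -47: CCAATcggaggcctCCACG
Hsp90b1 -212 to -194: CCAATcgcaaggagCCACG
Hsp90b1 -107 to -89: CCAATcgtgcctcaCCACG
Calr -162 to -144: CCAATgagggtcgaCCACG
Canx -145 to -127: CCAATcaccacgctCCACG
Creld2 -126 to -108: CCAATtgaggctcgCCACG
Dnajc3 -105 to -87: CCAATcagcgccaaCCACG
Pdia6 -98 to -80: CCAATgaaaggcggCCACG

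The next windows hold the 250 bases before the start of 3 chaperone genes with an ERSE and of Chac1, the Atf4 arm gene with the smallest p below. Capitals mark the ERSE in the first 3 and the CARE in Chac1, on whichever strand it lies.

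Hspa5 (chr2:34771840-34772089, plus strand): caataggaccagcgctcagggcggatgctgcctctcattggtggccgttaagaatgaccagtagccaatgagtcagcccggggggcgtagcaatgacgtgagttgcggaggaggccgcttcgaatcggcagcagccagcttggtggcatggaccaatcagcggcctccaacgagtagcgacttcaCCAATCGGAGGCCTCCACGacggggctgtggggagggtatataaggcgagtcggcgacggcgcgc
Hsp90b1 (chr10:86705445-86705694, minus strand): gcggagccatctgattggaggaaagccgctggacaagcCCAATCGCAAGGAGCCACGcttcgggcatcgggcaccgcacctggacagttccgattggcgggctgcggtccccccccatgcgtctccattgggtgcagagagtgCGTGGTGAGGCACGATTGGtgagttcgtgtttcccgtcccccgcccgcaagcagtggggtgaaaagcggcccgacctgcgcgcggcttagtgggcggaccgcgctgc
Calr (chr8:84846932-84847181, minus strand): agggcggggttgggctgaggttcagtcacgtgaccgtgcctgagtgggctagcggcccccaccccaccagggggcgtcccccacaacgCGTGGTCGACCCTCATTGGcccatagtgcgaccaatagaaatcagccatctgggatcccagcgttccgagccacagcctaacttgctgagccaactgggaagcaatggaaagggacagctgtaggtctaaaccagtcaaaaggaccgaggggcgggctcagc
Chac1 (chr2:119350992-119351241, plus strand): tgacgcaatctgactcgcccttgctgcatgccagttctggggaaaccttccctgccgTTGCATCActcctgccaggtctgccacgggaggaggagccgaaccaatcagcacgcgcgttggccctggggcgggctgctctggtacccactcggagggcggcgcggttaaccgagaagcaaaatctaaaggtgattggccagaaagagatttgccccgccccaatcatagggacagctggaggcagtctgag

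All 8 arrays lay on 1 slide, and 31292 to 34983 of 55681 probes (56.2% to 62.8%) were well above background. Values below are log2 intensities with the array's 75th percentile set to 0, and fold changes are log2 differences ± SE from 1 limma fit over the 4 groups (n = 2 arrays per group). Across all 23050 genes, 0 passed a Benjamini-Hochberg adjusted p of 0.05 in any of the 6 comparisons, and the smallest adjusted p was 0.121, with chrysotile against saline. No member is therefore called changed, and unadjusted p-values are given as a description beside the share of all genes that reached 0.05. The 3 comparisons with saline share the same 2 saline arrays. Same-numbered arrays deviated together, so a fit with the replicate number as a block is given where it moves a count.

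The chaperone arm stood above saline with chrysotile and with crocidolite, and near saline with amosite, by small amounts. With crocidolite 14 of 17 chaperone arm genes had a log2 fold change above 0, with a median of 0.25, where 46.3% of all genes lay above 0 and their median was -0.02. With chrysotile the count was 13 of 17 and the median 0.16, where 48.9% of all genes lay above 0 and their median was -0.01. With amosite it was 5 of 17 and -0.07, where 44.7% of all genes lay above 0 and their median was -0.02. Both crocidolite arrays lay above both saline arrays for 13 of 17 genes, and this held for 14.6% of all genes. The same was true of 11 of 17 genes with chrysotile (14.3% of all genes) and of 0 with amosite (8.23%). Both fibre arrays lay below both saline arrays for 1 gene with crocidolite (Hyou1, 19.9% of all genes), 1 with chrysotile (Herpud1, 15.3%) and 2 with amosite (Canx and P4hb, 12.9%). An unadjusted p under 0.05 in the higher direction was reached by 7 of 17 genes with crocidolite (2.86% of all genes), by 2 with chrysotile (2.83%) and by 0 with amosite (1.09%).

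**Figure D1:**
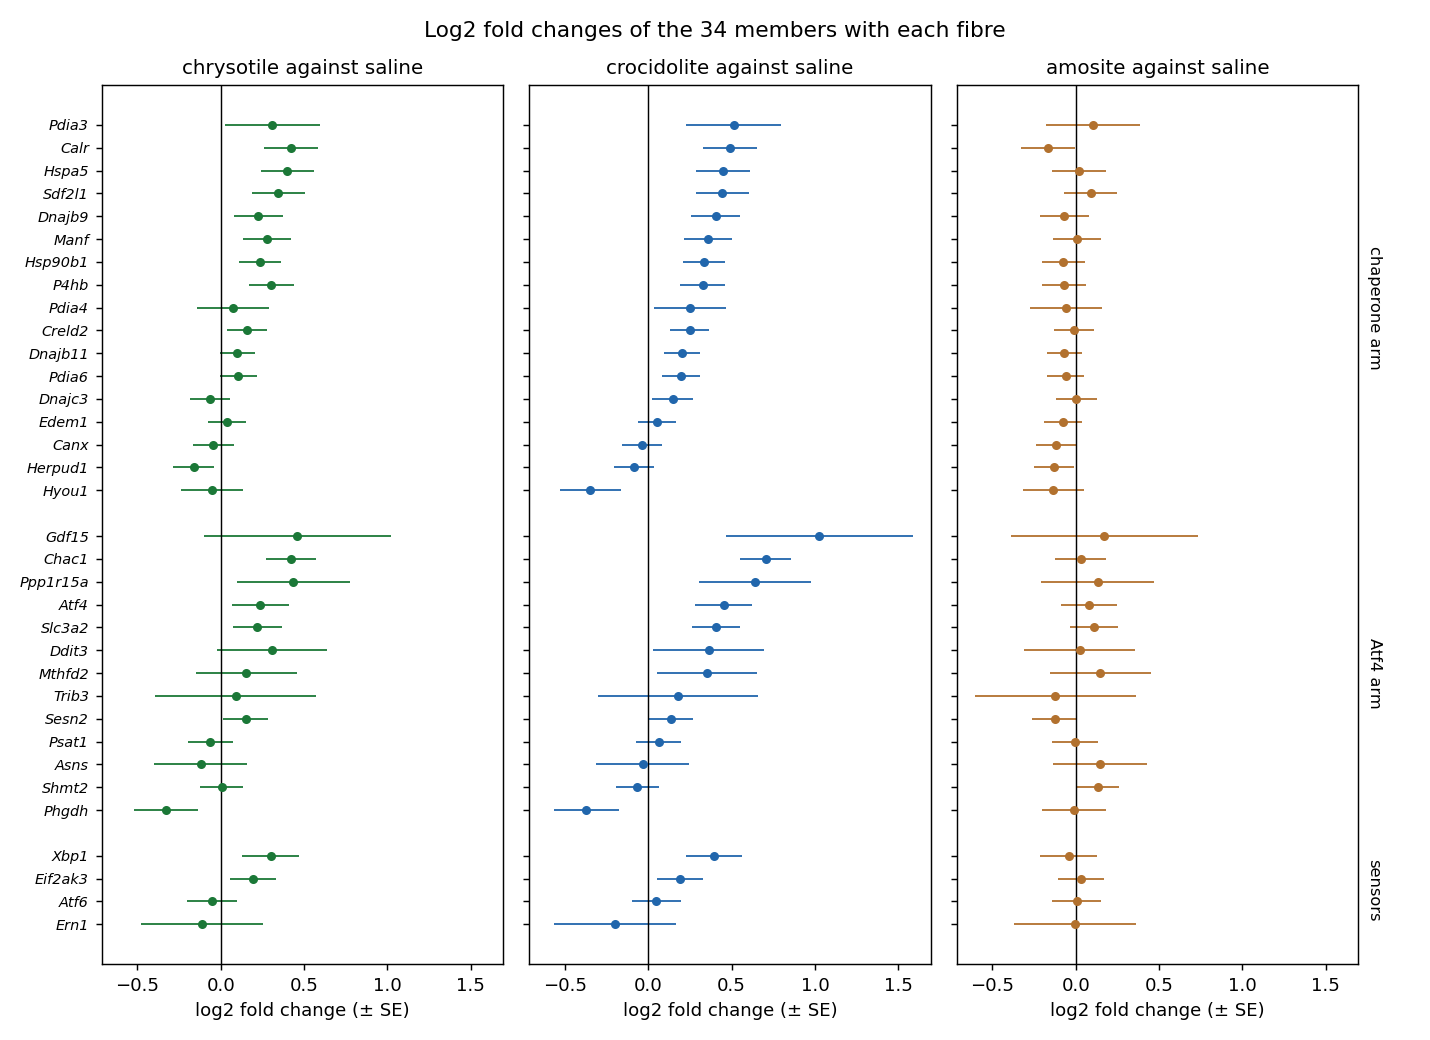
Log2 fold change ± SE (x axis) of each of the 34 members (y axis, by arm, ordered by the crocidolite value) for chrysotile, crocidolite and amosite against saline. Chaperone arm points lie mostly right of 0 with chrysotile (13 of 17) and crocidolite (14 of 17) and mostly left of it with amosite (5 of 17 above 0), and error bars are widest for Gdf15, Trib3, Ern1, Ppp1r15a and Ddit3.

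Hspa5 encodes BiP, the main Hsp70 chaperone of the ER lumen (probe on mm9 chromosome 2, 34631913 to 34631972). Its log2 intensity was 6.77 and 6.62 with chrysotile, 6.89 and 6.60 with crocidolite and 6.46 and 6.17 with amosite, against 6.35 and 6.24 with saline. All 4 chrysotile and crocidolite arrays lay above the 4 amosite and saline arrays. The fold changes were 0.40 ± 0.16 with chrysotile, 0.45 ± 0.16 with crocidolite and 0.02 ± 0.16 with amosite, with unadjusted p of 0.0455, 0.0302 and 0.907 and limma adjusted p of 0.899, 0.667 and 1. On a linear scale the difference from saline was 1.32-fold with chrysotile and 1.36-fold with crocidolite.

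Calr encodes calreticulin, a lectin chaperone that binds calcium (mm9 chromosome 8, 87366192 to 87366251). It read 5.54 and 5.85 with chrysotile, 5.70 and 5.83 with crocidolite and 5.03 and 5.18 with amosite, against 5.14 and 5.41 with saline. Again the chrysotile and crocidolite arrays lay above all others, while amosite overlapped saline. The fold changes were 0.42 ± 0.16 with chrysotile, 0.49 ± 0.16 with crocidolite and -0.17 ± 0.16 with amosite, with unadjusted p of 0.0389, 0.022 and 0.344. Canx encodes calnexin, the membrane-bound lectin chaperone of the same cycle, and its fold changes were -0.04, -0.04 and -0.12 in the same order. Its 8 arrays spanned only 0.21 on the log2 scale.

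Hsp90b1 encodes Grp94, the ER member of the Hsp90 family (mm9 chromosome 10, 86153770 to 86153829), and read 6.18 and 6.22 with chrysotile, 6.37 and 6.22 with crocidolite and 6.0 and 5.78 with amosite, against 5.99 and 5.94 with saline. Its chrysotile and crocidolite arrays did not overlap the other groups. The fold changes were 0.24 ± 0.13 with chrysotile, 0.33 ± 0.13 with crocidolite and -0.07 ± 0.13 with amosite, with unadjusted p of 0.11, 0.0375 and 0.579.

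Among the co-chaperones, Dnajb9 (ERdj4), which recruits BiP, read 3.38 and 3.42 with chrysotile, 3.70 and 3.45 with crocidolite and 3.16 and 3.05 with amosite, against 3.04 and 3.31 with saline. Both saline arrays lay below every chrysotile and crocidolite array. Fold changes of Dnajb9 were 0.23 ± 0.15 with chrysotile, 0.40 ± 0.15 with crocidolite and -0.07 ± 0.15 with amosite, and the unadjusted p with crocidolite was 0.0321. A dimmer Dnajb9 probe gave 0.29, 0.42 and 0.13, so the sign with amosite depends on the probe. Sdf2l1, a partner of the ERdj co-chaperones, read 0.24 and 0.37 with chrysotile, 0.51 and 0.30 with crocidolite and 0.06 and 0.04 with amosite, against -0.22 and 0.14 with saline, and its fold changes were 0.34 ± 0.16 with chrysotile, 0.44 ± 0.16 with crocidolite and 0.09 ± 0.16 with amosite, with a limma p of 0.0304 for crocidolite before adjustment. Dnajb11 (ERdj3) stood at 0.10, 0.20 and -0.07 with chrysotile, crocidolite and amosite, and Dnajc3 (p58IPK), a co-chaperone also known to inhibit Perk, at -0.06, 0.15 and 0.00.

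The 4 disulfide isomerases, which form and reshuffle disulfide bonds, all had crocidolite fold changes above 0. P4hb, the abundant isomerase Pdi (mm9 chromosome 11, 120422076 to 120422135), read 5.05 and 5.31 with chrysotile, 5.28 and 5.13 with crocidolite and 4.84 and 4.78 with amosite, against 4.91 and 4.84 with saline. Both amosite arrays lay below both saline arrays, the nearer one only just, and all 4 chrysotile and crocidolite arrays lay above them. Its fold changes were 0.30 ± 0.13 with chrysotile, 0.33 ± 0.13 with crocidolite and -0.07 ± 0.13 with amosite, with unadjusted p of 0.0633, 0.0489 and 0.616. Pdia3 (ERp57), the isomerase that works with calnexin and calreticulin, read 2.68 and 3.29 with chrysotile, 3.04 and 3.33 with crocidolite and 2.55 and 3.0 with amosite, against 2.43 and 2.91 with saline. Replicate 1 lay below replicate 2 in every group, so its SE was 0.28 and its fold change with crocidolite was 0.51 ± 0.28 with unadjusted p = 0.12. In the fit with the replicate block it was 0.51 ± 0.11 with unadjusted p = 0.00474. Pdia4 (ERp72) stood at 0.07, 0.25 and -0.06 and Pdia6 (P5) at 0.11, 0.20 and -0.06 with chrysotile, crocidolite and amosite.

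Manf, a secreted ER stress protein, read 2.44 and 2.41 with chrysotile, 2.65 and 2.36 with crocidolite and 2.21 and 2.09 with amosite, against 2.05 and 2.24 with saline. Manf had fold changes of 0.28 ± 0.14 with chrysotile, 0.36 ± 0.14 with crocidolite and 0.01 ± 0.14 with amosite, with unadjusted p = 0.0461 for crocidolite. Creld2, another secreted ER stress protein, stood at 0.16, 0.25 and -0.01 with chrysotile, crocidolite and amosite. Not every chaperone arm gene lay above saline. Hyou1 (Grp170), a nucleotide exchange factor for BiP and a dim probe here, read -2.47 and -2.20 with chrysotile, -2.50 and -2.76 with crocidolite and -2.50 and -2.33 with amosite, against -2.11 and -2.46 with saline. Both crocidolite arrays of Hyou1 lay below both saline arrays, with a fold change of -0.35 ± 0.18 (unadjusted p = 0.106). The degradation genes were also near or below 0. Herpud1, which helps assemble the ER ubiquitin ligase, stood at -0.16, -0.09 and -0.13, and Edem1, which directs misfolded glycoproteins to degradation, at 0.04, 0.05 and -0.08 with chrysotile, crocidolite and amosite.

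**Figure D2:**
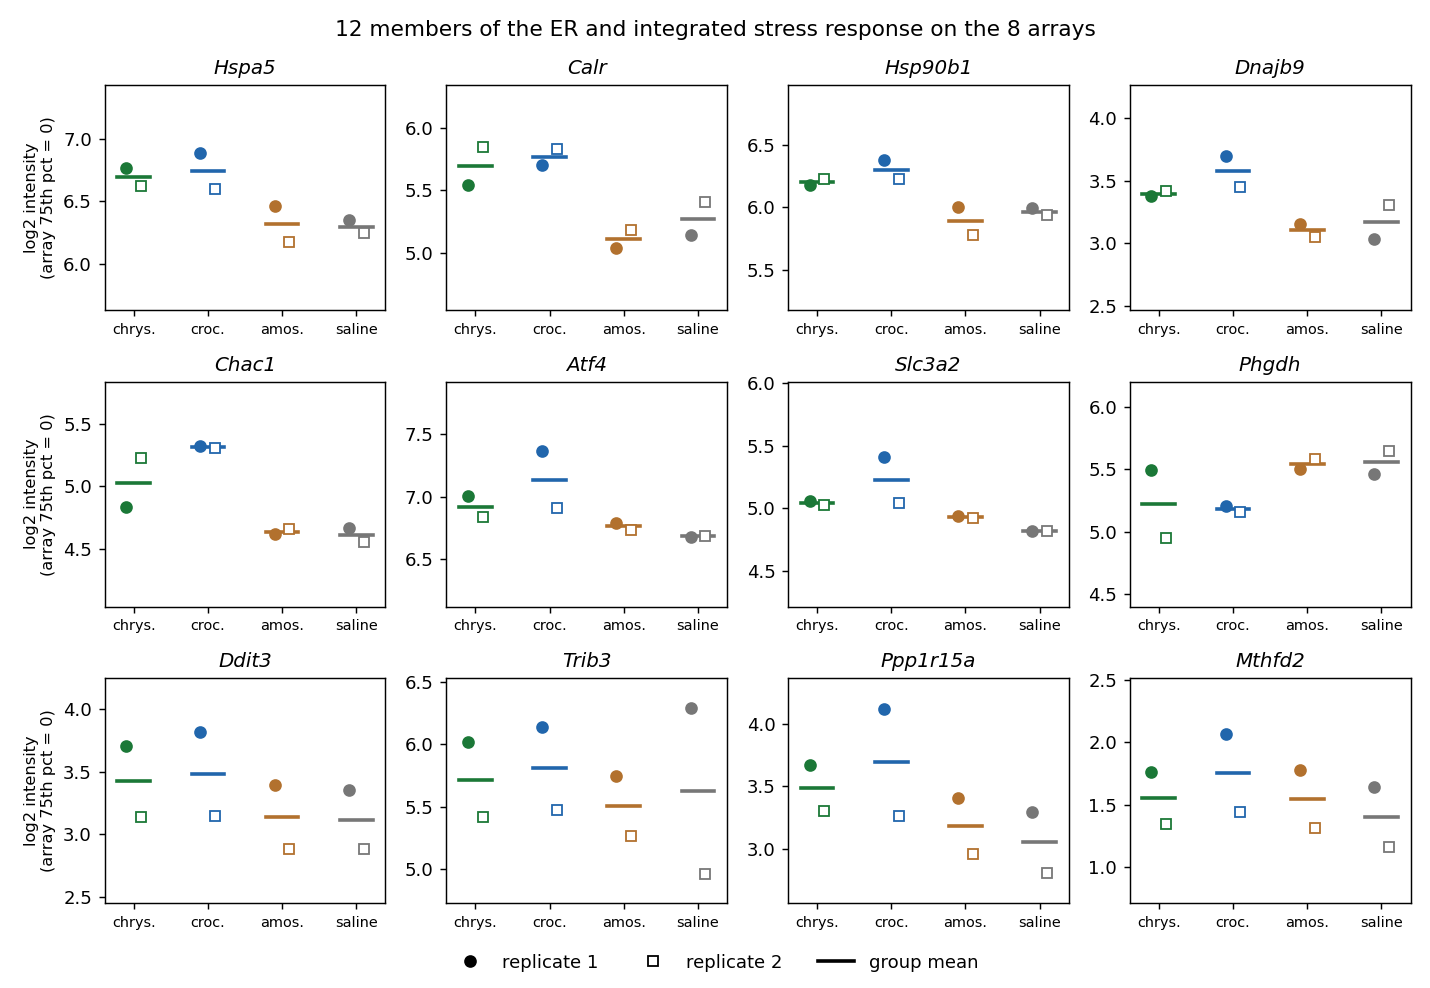
Log2 intensity (y axis, array's 75th percentile set to 0, each panel spanning the same range) of 12 members in the chrysotile, crocidolite, amosite and saline groups (x axis), with replicate 1 as circles, replicate 2 as open squares and the mean as a bar. Hspa5, Calr, Hsp90b1, Dnajb9, Chac1, Atf4 and Slc3a2 each separate chrysotile and crocidolite from amosite and saline. The share of all genes that do so was not counted. Ddit3, Trib3, Ppp1r15a and Mthfd2 have replicate 1 above replicate 2 in every group.

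The 7 chaperone arm genes with an ERSE had a median log2 fold change of 0.16 with chrysotile, 0.25 with crocidolite and -0.06 with amosite. The 6 chaperone arm genes whose window held neither an ERSE nor an ERSE-II had medians of 0.26, 0.37 and -0.06 in the same order. Of the 30 genes outside the 34 members with an ERSE in the window, 14 were tested, and their medians were -0.10, -0.05 and -0.04, with 6, 5 and 6 of them above 0. No test was made of these lists.

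Of the sensors and their factors, Xbp1, whose spliced form drives chaperone and degradation genes, read 5.39 and 5.80 with chrysotile, 5.63 and 5.75 with crocidolite and 5.25 and 5.26 with amosite, against 5.18 and 5.41 with saline. Both crocidolite arrays lay above both saline arrays, and chrysotile replicate 1 lay just below saline replicate 2. The Xbp1 fold changes were 0.30 ± 0.17 with chrysotile, 0.39 ± 0.17 with crocidolite and -0.04 ± 0.17 with amosite, with unadjusted p of 0.126, 0.0579 and 0.812. Whether the array probe separates spliced from unspliced Xbp1 was not analysed here, so its values say nothing on splicing. Eif2ak3 (Perk) stood at 0.20, 0.19 and 0.03 and Atf6 at -0.05, 0.05 and 0.00 with chrysotile, crocidolite and amosite. Ern1 (Ire1), the kinase and nuclease that splices Xbp1, stood at -0.11, -0.20 and 0.00, and its replicate 1 exceeded replicate 2 by 0.62 ± 0.07 (mean ± SD of the 4 groups).

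In the Atf4 arm 10 of 13 genes had a log2 fold change above 0 with crocidolite (46.3% of all genes), with a median of 0.35 and a range of -0.37 to 1.03. With chrysotile the count was 10 of 13 (48.9% of all genes) and the median 0.15. With amosite they were 9 of 13 (44.7% of all genes) and 0.08. The Atf4 arm medians moved with single arrays. With crocidolite the median was 0.12 without crocidolite replicate 1, 0.59 without crocidolite replicate 2 and 0.13 without saline replicate 2. With chrysotile it was 0.02 without chrysotile replicate 1, 0.24 without chrysotile replicate 2, 0.27 without saline replicate 1 and 0.03 without saline replicate 2. With amosite it was 0.03 without amosite replicate 1, 0.12 without amosite replicate 2, 0.15 without saline replicate 1 and, with the sign turned, -0.03 without saline replicate 2. Both fibre arrays lay above both saline arrays for 3 of 13 genes with crocidolite (14.6% of all genes), 4 with chrysotile (14.3%) and 3 with amosite (8.23%). An unadjusted p under 0.05 in the higher direction was reached by 3 with crocidolite (Chac1, Atf4 and Slc3a2, where 2.86% of all genes reached it), by 1 with chrysotile (Chac1, 2.83%) and by 0 with amosite (1.09%).

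Chac1, an Atf4 target that breaks down glutathione (mm9 chromosome 2, 119179990 to 119180049), had the smallest p of the 34 members. It read 4.84 and 5.23 with chrysotile, 5.32 and 5.31 with crocidolite and 4.62 and 4.66 with amosite, against 4.66 and 4.56 with saline. Both crocidolite arrays lay above all 6 other arrays, and both chrysotile arrays above the amosite and saline arrays. Its fold changes were 0.42 ± 0.15 with chrysotile, 0.70 ± 0.15 with crocidolite and 0.03 ± 0.15 with amosite, or 1.63-fold with crocidolite. The unadjusted p was 0.0313, 0.00326 and 0.853, and the limma adjusted p with crocidolite was 0.504. Over the 18 alternative settings the crocidolite value ran from 0.65 to 0.89.

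Atf4 itself, the transcription factor of the arm (mm9 chromosome 15, 80087902 to 80087961), read 7.0 and 6.84 with chrysotile, 7.36 and 6.91 with crocidolite and 6.79 and 6.73 with amosite, against 6.68 and 6.69 with saline. Every fibre array lay above both saline arrays, and the 2 saline arrays lay close together. The fold changes were 0.24 ± 0.17 with chrysotile, 0.45 ± 0.17 with crocidolite and 0.08 ± 0.17 with amosite, with unadjusted p of 0.209, 0.0358 and 0.659. Crocidolite replicate 1 was the highest array, and the crocidolite value ran over the alternatives from 0.23 to 0.68. A dimmer Atf4 probe gave 0.29, 0.52 and 0.24.

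Slc3a2, the heavy chain of amino acid exchangers at the cell surface, read 5.05 and 5.02 with chrysotile, 5.41 and 5.04 with crocidolite and 4.94 and 4.92 with amosite, against 4.82 and 4.82 with saline. As with Atf4, each fibre array lay above both saline arrays. The fold changes were 0.22 ± 0.14 with chrysotile, 0.41 ± 0.14 with crocidolite and 0.11 ± 0.14 with amosite, and the unadjusted p with crocidolite was 0.0297.

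Several stress effectors of the arm differed between the 2 replicates of every group. Ddit3 (Chop), a factor linked to cell death under lasting ER stress, read 3.71 and 3.14 with chrysotile, 3.82 and 3.14 with crocidolite and 3.39 and 2.89 with amosite, against 3.35 and 2.88 with saline. In each group replicate 1 was higher, by 0.56 ± 0.09 on average (SD over the 4 groups), more than the fold changes of 0.31 ± 0.33 with chrysotile, 0.36 ± 0.33 with crocidolite and 0.02 ± 0.33 with amosite. Ppp1r15a (Gadd34), which guides the phosphatase that restores eIF2, read 3.67 and 3.30 with chrysotile, 4.12 and 3.27 with crocidolite and 3.41 and 2.96 with amosite, against 3.29 and 2.81 with saline. Its fold changes were 0.44 ± 0.34 with chrysotile, 0.64 ± 0.34 with crocidolite and 0.13 ± 0.34 with amosite, and replicate 1 exceeded replicate 2 by 0.54 ± 0.22. Gdf15, a secreted stress hormone, read -0.43 and -1.15 with chrysotile, 0.50 and -0.95 with crocidolite and -0.78 and -1.38 with amosite, against -0.80 and -1.71 with saline. It had the highest fold change of the members with crocidolite, 1.03 ± 0.56, and also the largest difference between 2 arrays of that group. Its unadjusted p was 0.116 in the limma fit and 0.00535 with the replicate block.

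Trib3, a pseudokinase that restrains Atf4, read 6.02 and 5.42 with chrysotile, 6.14 and 5.48 with crocidolite and 5.75 and 5.26 with amosite, against 6.29 and 4.97 with saline. The 2 saline arrays were its highest and lowest readings of all 8. Trib3 had fold changes of 0.09 ± 0.48 with chrysotile, 0.18 ± 0.48 with crocidolite and -0.12 ± 0.48 with amosite. Sesn2, a stress protein that restrains mTORC1, stood at 0.15, 0.14 and -0.13 with chrysotile, crocidolite and amosite.

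The amino acid and one-carbon enzymes of the arm did not share 1 direction. Phgdh, the first enzyme of serine synthesis (mm9 chromosome 3, 98117215 to 98117274), read 5.50 and 4.95 with chrysotile, 5.21 and 5.16 with crocidolite and 5.51 and 5.59 with amosite, against 5.46 and 5.65 with saline. Both crocidolite arrays lay below both saline arrays, and the fold changes were -0.33 ± 0.19 with chrysotile, -0.37 ± 0.19 with crocidolite and -0.01 ± 0.19 with amosite, with unadjusted p of 0.138, 0.101 and 0.963. A second Phgdh probe gave -0.40, -0.45 and -0.02. Psat1, the next enzyme of that route, stood at -0.06, 0.06 and 0.00 with chrysotile, crocidolite and amosite. Shmt2, the mitochondrial enzyme that splits serine, stood at 0.01, -0.07 and 0.13. Mthfd2, the mitochondrial folate enzyme downstream, stood at 0.15, 0.35 and 0.15, and its replicate 1 was higher by 0.50 ± 0.09. Asns, the asparagine synthetase, stood at -0.12, -0.03 and 0.14 with SE of 0.28.

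The difference between the arms was smaller than the unpaired spread between replicates. On each array the median of the 17 chaperone genes minus that of the 13 Atf4 genes, each gene centred on its mean over arrays, was -0.10 and 0.25 with chrysotile, -0.29 and 0.23 with crocidolite and -0.15 and 0.00 with amosite, against -0.16 and 0.17 with saline. Replicate 1 was below replicate 2 in all 4 groups, and each fibre group overlapped saline. The pooled SD within groups was 0.05 for the chaperone median, 0.24 for the Atf4 median and 0.26 for their difference. The chaperone medians themselves were 0.03 and 0.11 with chrysotile, 0.14 and 0.12 with crocidolite and -0.10 and -0.14 with amosite, against -0.13 and -0.02 with saline. The Atf4 medians were 0.13 and -0.14, 0.42 and -0.11, and 0.06 and -0.14 for the same fibres, against 0.04 and -0.19 with saline. Set against the saline array of the same number, the Atf4 median differed by 0.09 and 0.05 with chrysotile, 0.39 and 0.07 with crocidolite and 0.02 and 0.05 with amosite. The chaperone median differed in the same way by 0.16 and 0.13, 0.26 and 0.13, and 0.03 and -0.12, and the chaperone minus Atf4 median by 0.07 and 0.08, -0.12 and 0.06, and 0.01 and -0.17. Both pairs thus had the same sign for the Atf4 median with every fibre, and for the chaperone median with chrysotile and crocidolite. Their difference kept its sign with chrysotile only, and 2 pairs allow no test. The median over genes of the same-numbered differences is another summary. For the chaperone arm it was 0.15 and 0.15 with chrysotile, 0.36 and 0.16 with crocidolite and 0.02 and -0.11 with amosite. For the Atf4 arm it was 0.16 and 0.20, 0.42 and 0.24, and 0.05 and 0.11. There the Atf4 arm was higher in every pair, so the sign with chrysotile depends on the summary. Between fold changes, the chaperone minus Atf4 median was 0.01 with chrysotile, -0.10 with crocidolite and -0.15 with amosite.

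**Figure D3:**
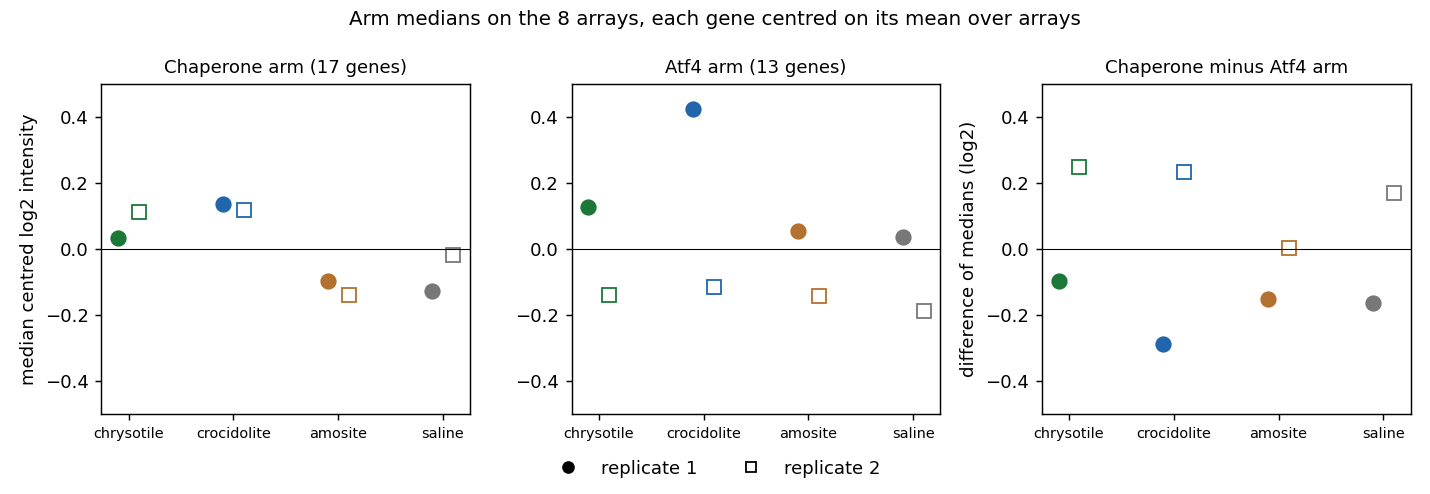
Median centred log2 intensity (y axis) of the chaperone arm, of the Atf4 arm, and their difference, on each array of the chrysotile, crocidolite, amosite and saline groups (x axis). The 2 arrays of a group lie closer together for the chaperone median (pooled SD 0.05) than for the Atf4 median (pooled SD 0.24), whose replicate 1 is above replicate 2 in every group. Saline replicate 1 lies between the 2 amosite arrays for the chaperone median.

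Replicate 1 was higher than replicate 2 in all 4 groups for 6 of 13 Atf4 arm genes (Ddit3, Trib3, Asns, Gdf15, Mthfd2 and Ppp1r15a). The same held for 1 of 17 chaperone genes (Hspa5) and 1 of 4 sensors (Ern1), where 19.4% of all genes showed this. Replicate 1 was lower in all 4 groups for Calr, Pdia3 and Pdia4, for Psat1 and for Xbp1, where 17.4% of all genes did. The replicate number was also the position on the slide, and the other part of the position was the group, so position and group cannot be told apart. Whether position or culture moved these genes was not tested.

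**Figure D4:**
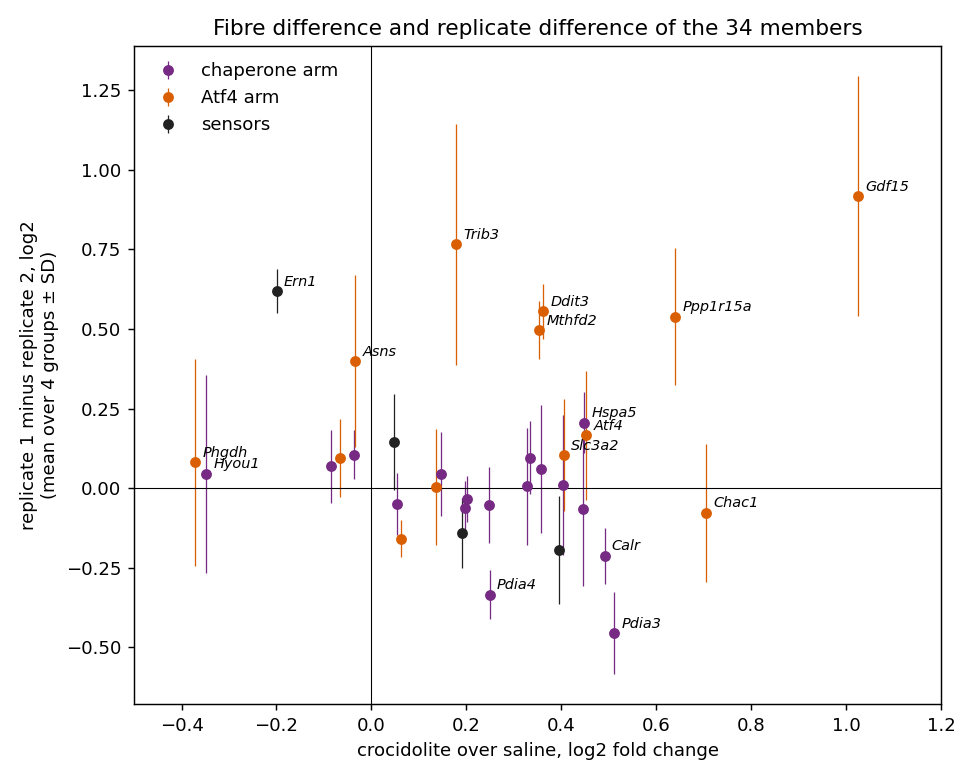
Log2 fold change of crocidolite over saline (x axis) and log2 difference of replicate 1 minus replicate 2 (y axis, mean ± SD over the 4 groups) for the 34 members, coloured by arm. Gdf15, Ppp1r15a, Ddit3 and Mthfd2 are high on both axes, Trib3, Ern1 and Asns mainly on the replicate axis, and Chac1, Calr and Hspa5 mainly on the fibre axis, while Pdia3 is high on the fibre axis and lowest on the replicate axis.

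With the replicate block, the members with an unadjusted p under 0.05 in the higher direction numbered 16 with crocidolite against saline (8 chaperone arm, 7 Atf4 arm and Xbp1, where 5.61% of all genes reached it), compared with 10 without the block. They numbered 6 with chrysotile (5.51%), compared with 3, and 0 with amosite (1.74%), as without it. With crocidolite the block added Pdia3, Pdia4, Ddit3, Gdf15, Mthfd2, Ppp1r15a and Xbp1, and P4hb lay just outside it. With chrysotile it added Pdia3, Ddit3 and Ppp1r15a. Ddit3 with crocidolite was 0.36 ± 0.09 with the block, against 0.36 ± 0.33 without it. No gene passed an adjusted p of 0.05 with the block either, and 0 members reached 0.05 in the lower direction against saline in either fit, where 2.64%, 4.42% and 1.58% of all genes did with chrysotile, crocidolite and amosite without the block.

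The counts also changed when single arrays were left out. An array outside a comparison enters it only through the spread shared by the 4 groups. Leaving such an array out changes the p-values and not the fold changes. For crocidolite the 10 members became 1 without saline replicate 1, 2 without crocidolite replicate 1, 4 without either amosite array and 5 without saline replicate 2. For chrysotile the 3 members became 0 without saline replicate 1 or chrysotile replicate 2, and 1 without any 1 of the crocidolite or amosite arrays. Members with a fold change above 0 moved less, between 25 and 29 of 34 with crocidolite and between 23 and 28 with chrysotile over the same leave-one-out fits. The chaperone median with chrysotile, 0.16 over all arrays, was 0.08 without chrysotile replicate 2 or saline replicate 1 and 0.24 without saline replicate 2.

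Chrysotile and crocidolite were set against amosite directly. Crocidolite stood above amosite for 16 of 17 chaperone arm genes and 10 of 13 Atf4 arm genes, with medians of 0.31 and 0.29, where 48.4% of all genes lay above 0. Both crocidolite arrays lay above both amosite arrays for 13 chaperone arm genes, which 17.6% of all genes did. An unadjusted p under 0.05 was reached by 9 members in that direction (2.47% of all genes), 7 of the chaperone arm with Chac1 and Xbp1. Calr differed by 0.66 ± 0.16 and Chac1 by 0.67 ± 0.15, each with a limma adjusted p of 0.872. Dnajb9 differed by 0.47 ± 0.15, Hspa5 by 0.43 ± 0.16, Hsp90b1 by 0.41 ± 0.13, P4hb by 0.40 ± 0.13, Manf by 0.35 ± 0.14, Dnajb11 by 0.27 ± 0.11 and Xbp1 by 0.44 ± 0.17. With the replicate block 16 members reached 0.05 (5.21% of all genes), and without crocidolite replicate 1 or amosite replicate 2 only 2 did.

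Chrysotile stood above amosite for 15 of 17 chaperone arm genes and 9 of 13 Atf4 arm genes, with medians of 0.17 and 0.16, where 52.4% of all genes lay above 0. Calr differed by 0.59 ± 0.16 (unadjusted p = 0.0103 in limma), P4hb by 0.37 ± 0.13, Hsp90b1 by 0.31 ± 0.13 and Chac1 by 0.39 ± 0.15. These 4 were the members with an unadjusted p under 0.05 (2.62% of all genes in that direction). With the block the count was 7 (5.44%), and it was 0 without chrysotile replicate 2, 1 without amosite replicate 2 and 2 without any 1 of the saline arrays, the crocidolite arrays or amosite replicate 1.

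No member separated chrysotile from crocidolite by its p. Of the 34 members 6 had a log2 fold change of chrysotile over crocidolite above 0, with a median of -0.09 over the members, where 53.3% of all genes lay above 0. No member had an unadjusted p under 0.05 (2.11% of all genes did in the higher and 0.638% in the lower direction). Hspa5 differed by -0.05 with a 95% interval of -0.44 to 0.34, Calr by -0.07 (-0.46 to 0.32) and Chac1 by -0.28 (-0.65 to 0.09). Both Chac1 arrays with chrysotile lay below both with crocidolite. Gdf15 differed by -0.57 (-1.93 to 0.80), and with the block its p was 0.0497, unadjusted in limma. The count of 6 above 0 became 18 without crocidolite replicate 1, 10 without chrysotile replicate 2 and 1 with each array scaled to its median.

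Other genes of the pathway were read from 2 further lists. Of 39 measured ER folding and degradation genes outside the members, 30 lay above 0 with chrysotile (48.9% of all genes), 31 with crocidolite (46.3%) and 15 with amosite (44.7%), with medians of 0.05, 0.11 and -0.02. None passed the adjusted threshold in limma, and 2, 2 and 0 reached an unadjusted p under 0.05 in the higher direction, where 2.83%, 2.86% and 1.09% of all genes did. Pdia5, another disulfide isomerase, stood at 0.62 ± 0.17 with chrysotile, 0.62 ± 0.17 with crocidolite and 0.27 ± 0.17 with amosite. Ostc, a subunit of the oligosaccharyltransferase, stood at 0.34 ± 0.13 with chrysotile and 0.43 ± 0.13 with crocidolite. Next by p were Sil1, an exchange factor for BiP, at 0.19 ± 0.11 with chrysotile, and Hspa13, an Hsp70 of the microsomes, at 0.62 ± 0.31 with crocidolite and 0.47 ± 0.31 with amosite. Ssr1, of the translocon, stood at -0.27 ± 0.15 with amosite.

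Of 41 measured Atf4 targets and integrated stress genes outside the members, 31 lay above 0 with chrysotile (48.9% of all genes), 35 with crocidolite (46.3%) and 29 with amosite (44.7%), with medians of 0.12, 0.15 and 0.04. None passed the adjusted threshold in limma, and 1, 4 and 0 reached an unadjusted p under 0.05 in the higher direction, where 2.83%, 2.86% and 1.09% of all genes did. Ndrg1, a gene of stress and hypoxia, stood at 0.73 ± 0.19 with chrysotile and 0.95 ± 0.19 with crocidolite. The tRNA synthetase genes Cars and Iars stood at 0.29 ± 0.11 each with crocidolite, and Cars at 0.19 ± 0.11 with amosite. With chrysotile Eif2a stood at 0.27 ± 0.13 and Mthfd1l, a mitochondrial folate enzyme, at 0.63 ± 0.30. With amosite the amino acid carrier Slc38a2 stood at 0.23 ± 0.13 and Psph, the last enzyme of serine synthesis, at 0.22 ± 0.13.

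Markers of the labelled cell type were present. All 12 adipocyte markers and all 10 preadipocyte and fibroblast markers were above background on all 8 arrays, and the macrophage markers Mrc1 and Lyz2 on none. Of the 4 endothelial markers, Pecam1 and Kdr were above background on all 8 arrays, Tek on 1 and Cdh5 on none. The summed intensity of the adipocyte list, in units of the array's 75th percentile, was 3523 to 3652 with chrysotile, 3408 to 3650 with crocidolite and 3475 to 3643 with amosite, against 3382 to 4371 with saline. The preadipocyte and fibroblast list summed to 847 to 973, 837 to 952 and 799 to 935 with the same fibres, against 903 to 905 with saline. The median fold change of its 10 genes was 0.04 with chrysotile, 0.10 with crocidolite and -0.06 with amosite. In the higher direction 2 genes reached an unadjusted p under 0.05 with chrysotile (2.83% of all genes) and the same 2 with crocidolite (2.86%). These were Ly6a (Sca-1), at 0.82 ± 0.27 with chrysotile, 0.78 ± 0.27 with crocidolite and -0.01 ± 0.27 with amosite, and S100a4, at 1.25 ± 0.41, 1.06 ± 0.41 and 0.91 ± 0.41. Thy1 stood at 0.43 ± 0.41, 0.29 ± 0.41 and -0.04 ± 0.41, and these 3 markers were chosen after their values were seen. Of 10 macrophage markers on the array 5 were above background on all arrays. The list summed to 65.2 to 75.5, 61.7 to 69.4 and 62.2 to 66.7, against 66.6 to 74.1 with saline. Itgam was the brightest of them, at a log2 intensity of 5.74 to 6.04 over the 8 arrays, and weighed most in that sum. Cd68 stood at 0.60, 0.41 and 0.13 (SE 0.17) with chrysotile, crocidolite and amosite, and Cd14 at 0.70, 0.96 and 0.20 (SE 0.30). Csf1r stood at -0.45, -0.37 and -0.46 (SE 0.19) and Mpeg1 at 0.96, 0.99 and -0.31 (SE 0.82). An unadjusted p under 0.05 was reached by Cd68 with chrysotile (2.83% of all genes higher) and by Cd68 and Cd14 with crocidolite (2.86%). Csf1r reached it lower with amosite (1.58%), and Mpeg1, Ptprc and Itgam with no fibre. The median fold change of the 6 tested macrophage markers was 0.31 with chrysotile, 0.24 with crocidolite and 0.02 with amosite, and of the 12 adipocyte markers -0.15, -0.17 and -0.07. Their part in the chaperone and Atf4 values was not tested. In these bulk cultures fewer cells of a type and less RNA per cell cannot be told apart.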

How the data were processed

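Total RNA was labelled with 1 dye and hybridised to Agilent arrays. The deposited values are the linear intensity of each spot, which per the file headers Feature Extraction 10.7.1.1 (10.7 per the submitters' processing notes) had background-subtracted and detrended, replacing values near background by surrogates. The arrays had not been scaled to each other. The deposited value table holds the same intensity (largest difference 0). Flags for outliers and for signal well above background came from the deposited files. Outlier spots (99 to 183 per array), control spots and 9 incompletely measured probes were left out. The log2 intensity was centred on each array's 75th percentile. Probes well above background on both arrays of at least 1 group (33044) were kept, and the brightest stood for each gene, giving 23050 genes. Symbols of 26860 probes were updated through RefSeq identifiers. For 6 members more than 1 probe passed.

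One limma fit (R 4.3.3, limma 3.58.1, package data.table (1.17.8); lmFit and eBayes, 4 residual and 2.22 prior degrees of freedom) gave 6 comparisons, two-sided, with Benjamini-Hochberg adjustment over all genes at 0.05. The code was tested on simulated data. The p-values reflect only how far these samples differ, which may be technical variation, and the number of arrays limits the precision. Deviations of same-numbered arrays correlated at 0.25 to 0.45 in all 6 pairs of groups, so the replicate number was taken as a pairing found in the data. Alternatives were normexp with an offset of 50, quantile and median scaling, other filters, the mean of probes, the block, another prior, the groups fitted in pairs, the value table and leaving out each array.

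Members, gene lists, arms and tests were chosen with earlier results of these data known. All members were to be named, with values in full for an unadjusted p under 0.05 or for the 3 highest and 3 lowest of an arm, and of the other lists the 3 smallest p. Positions are on mm9, and the exon or untranslated region of a probe was not analysed here. Promoter windows are RefSeq's on GRCm38.p6.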

Additional observations from a re-analysis of the deposited data

Results flagged for a closer look

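P4hb, the abundant disulfide isomerase, was flagged because both chrysotile arrays and both crocidolite arrays lay above the saline arrays while both amosite arrays lay below them. The nearer amosite array lay only just below, at 4.836 against 4.842 for the lower saline array. The share of all genes with this pattern was not counted. The log2 difference was 0.37 ± 0.13 for chrysotile against amosite and 0.40 ± 0.13 for crocidolite against amosite. In limma neither direct comparison passed (adjusted p = 1.00 and 0.872), and amosite differed from saline by -0.07 ± 0.13. Groups of 2 arrays are too small for a check of single outlying arrays.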

How the results depend on the processing

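The 2 arrays per group set the limits here, and a block by slide or scan day could not be run because there was 1 of each. The count of genes passing the adjusted threshold was 0 in all 6 comparisons and stayed 0 with normexp, both other filters, the mean of probes, the replicate block, the other prior, the groups fitted in pairs and the value table. With quantile normalization it was 3 for chrysotile, 2 for crocidolite and 2 for amosite against saline, and with median scaling 2, 1 and 2, with no member among them. Leaving out 1 array gave 0 to 67 for chrysotile, 0 to 51 for crocidolite and 0 to 58 for amosite against saline, each highest without saline replicate 2, and 0 to 1 for chrysotile against crocidolite and against amosite. A group left with 1 array is then assumed to vary like the others. Members higher at an unadjusted p under 0.05 numbered 3 for chrysotile against saline, and 5 with normexp, 0 with quantile normalization, 1 with no filter, 6 with the replicate block, 0 with the 2 groups alone and 0 to 4 over arrays left out. For crocidolite against saline the 10 became 16 with the replicate block, 2 with the 2 groups alone and 1 to 9 over arrays left out. For chrysotile against amosite the 4 became 1 with quantile normalization, median scaling or the 2 groups alone, 2 with no filter, 7 with the block and 0 to 4 over arrays left out. For crocidolite against amosite the 9 became 14 with normexp, 16 with the block and 2 to 11 over arrays left out. Median scaling moved the median of all genes by 0.18 for crocidolite against saline, 0.12 for crocidolite against amosite and -0.14 for chrysotile against crocidolite, and with it the chaperone medians became 0.43 with crocidolite and -0.0083 with amosite. Over arrays left out the chaperone median ran from 0.0772 to 0.242 with chrysotile and 0.22 to 0.30 with crocidolite. The Atf4 median ran from 0.02 to 0.27 with chrysotile, 0.12 to 0.59 with crocidolite and -0.03 to 0.15 with amosite. The chaperone minus Atf4 median ran from -0.19 to 0.21 with chrysotile, from -0.31 to 0.18 with crocidolite and from -0.24 to -0.01 with amosite (the last without saline replicate 2). The block changed no median and no adjusted call. No member with an unadjusted p under 0.05 in the fit of all arrays without the block changed sign under any alternative. This does not hold for every member that reached 0.05 only with the block. The cause of these shifts was not tested.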
